A study of Homo sapiens with 2 samples.

Results

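SCD, which encodes stearoyl-CoA desaturase, and 7 further genes of fatty acid and sterol metabolism were examined for their recovery with the RNA-binding proteins ZC3H7B and ZC3H7A. The genes were chosen by name and not by a cut on a measured value, but with earlier results of these data known. They were the desaturases SCD, FADS1 and FADS2, the fatty acid synthase gene FASN, the sterol synthesis genes HMGCS1 and SQLE, and the sterol regulators INSIG1 and SREBF2. They are 8 of the 10145 genes with a row for either protein, 8 of the 9159 listed for ZC3H7B and 7 of the 8204 listed for ZC3H7A. FADS1 was the gene without a row for ZC3H7A, which means that no cluster was called on it there and is not a count of 0 reads.

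The measurements come from PAR-CLIP, a crosslinking and immunoprecipitation assay that relies on a photoactivatable nucleoside. In this assay cells take up 4-thiouridine, ultraviolet light joins the labelled RNA to bound protein, and each crosslink is read as a T-to-C conversion in a cluster of overlapping reads. There were 2 groups with 1 library each, Flag/HA-ZC3H7B and Flag/HA-ZC3H7A, both from HEK293, a line derived from human embryonic kidney. In both, the tagged protein was overexpressed from a transgene induced with 1 µg/mL doxycycline for 24 h, RNA was labelled with 100 µM 4-thiouridine for 16 h, and light of 365 nm was used. There was no untagged or uninduced library, so the values have no background of their own, and with 1 library per protein no difference has a replicate check and none was tested. The labels do not say whether each line was a single clone.

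On genes, 99805 clusters with 2409465 reads were called for ZC3H7B and 51808 clusters with 3779662 reads for ZC3H7A. Distinct reads numbered 1212989 and 300342. A distinct read was thus counted 1.99 times on average in the ZC3H7B library and 12.6 times in the ZC3H7A library. ZC3H7B had 3768 reads in its own library against 1362 in the ZC3H7A library, and ZC3H7A had 158 reads in the ZC3H7B library against 82704 in its own, so each gene stood higher in the library of its own protein. Of 6 genes taken as marks of HEK293 cells, VIM, LIN28B, NEFL and CDH2 were listed in both libraries, whereas NEFM and PAX2 were listed in neither. Of 4 hepatocyte, 4 adipocyte and 3 blood genes, PLIN1 was listed, with 8 reads in the ZC3H7B library, and none was listed for ZC3H7A.

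Cells match the making of sterols and unsaturated fatty acids to supply through the SREBP transcription factors, which are made as membrane proteins of the endoplasmic reticulum. When sterols are plentiful, INSIG proteins hold the SREBP escort SCAP in that membrane. When sterols run low, SREBP moves to the Golgi, is cut, and its freed part raises transcription of genes for cholesterol and fatty acid synthesis. PAR-CLIP reads record contacts on the transcripts of these genes and depend on how much of each transcript the cells hold, which was not analysed here.

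**Figure D1:**
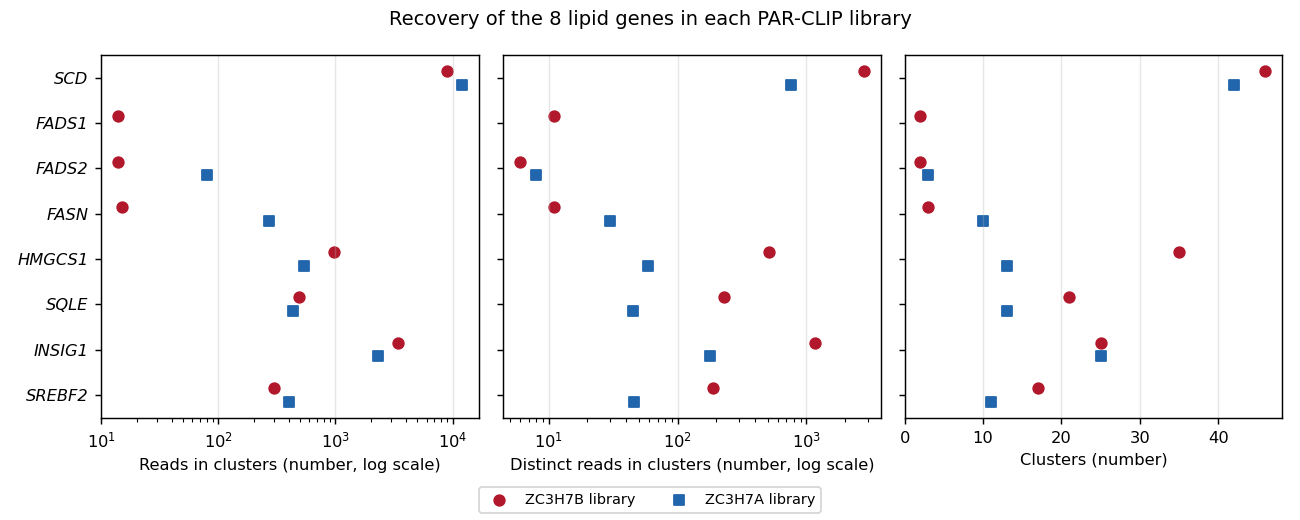
Reads, distinct reads (both on log axes) and clusters (linear axis) of the 8 genes, with circles for the ZC3H7B library and squares for the ZC3H7A library, 1 library each. SCD leads every panel in both libraries, and FADS1, FADS2 and FASN hold 14 to 15 reads in the ZC3H7B library.

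SCD, whose enzyme puts the first double bond into saturated fatty acids, carried most of the reads of the group. It had 8908 reads in 46 clusters in the ZC3H7B library, against 12012 reads in 42 clusters in the ZC3H7A library. Its distinct reads numbered 2775 and 759. Read sums are not divided by transcript length, and on that scale SCD ranked 2 among the genes of the ZC3H7B library and 14 among those of the ZC3H7A library. By distinct reads it ranked 9 and 11. It took 0.370% of all reads of the ZC3H7B library (exact 95% interval 0.362 to 0.377%) and 0.318% of those of the ZC3H7A library (0.312 to 0.324%). Intervals here and below cover counting error only and take each count as independent, and with PCR copies of 1 molecule among the reads, they are narrower than the true counting error. SCD alone made up 63.1% of the reads on the group in the ZC3H7B library and 74.9% in the ZC3H7A library. With INSIG1 added, these shares were 87.3% and 89.2%, so a sum over the group is largely a statement about SCD and INSIG1.

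The reads of SCD lay unevenly over its clusters. Its clusters held 194 reads on average but 66 at the median in the ZC3H7B library, and 286 on average but 93 at the median in the ZC3H7A library. The mean was therefore 2.93 and 3.08 times the median. INSIG1 stood at 3.04 times in the ZC3H7B library and 1.77 times in the ZC3H7A library, and the other members lay between 0.934 and 1.90. FADS1 and FADS2 had 2 clusters each in the ZC3H7B library, where mean and median are equal by construction. This measure was not taken over all genes, so it does not show that the unevenness is particular to SCD. The reads of SCD were thus weighted to its deeper clusters in both libraries, and the gene tables do not say where on the transcript these lie.

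A processed pseudogene of SCD, SCDP1, had rows of its own, with 64 reads in 4 clusters in the ZC3H7B library and 151 reads in 3 clusters in the ZC3H7A library. These amount to 0.719% and 1.26% of the SCD reads. Reads that fit both sequences are uncertain between them. SCDP1 was looked up after the values of SCD were seen.

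Ratios between the libraries were taken as reads in the ZC3H7B library over reads in the ZC3H7A library, on the log2 scale, set so that the median of the 7168 genes with rows in both and at least 20 reads summed was 0. The term higher was kept for a gene whose whole exact interval lay beyond 2-fold on that side. By this rule 1 of the 7 members compared was higher in the ZC3H7B library (14.3%, where all genes gave 18.2%), 2 were higher in the ZC3H7A library (28.6%, where all genes gave 18.0%), and 4 were neither. The median log2 ratio of the 7 was 0.06, beside 0 for all genes by construction. With 7 genes compared, these shares rest on 1 and 2 genes. With distinct reads 0 members were higher in the ZC3H7B library (7.28% of all genes) and 1 in the ZC3H7A library (10.1%). By mean reads per cluster the counts were 1 (6.18% of all genes) and 0 (4.65%), and by number of clusters 0 (0.321%) and 0 (0.223%). What follows is a description of single genes.

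**Figure D2:**
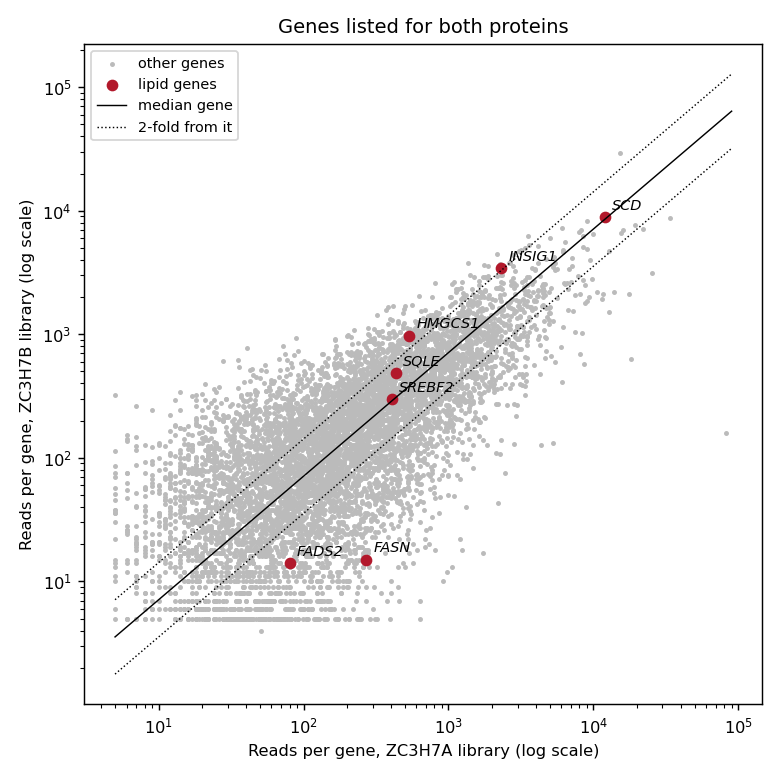
Reads per gene in the ZC3H7B library (vertical) against the ZC3H7A library (horizontal), both on log axes, for the genes listed for both proteins; the solid line is the median gene and dotted lines lie 2-fold from it. SCD and SREBF2 sit on the line, HMGCS1 above the upper dotted line, INSIG1 close to it, and FADS2 and FASN below the lower one.

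The members of fatty acid synthesis and desaturation other than SCD, which are FASN, FADS1 and FADS2, were sparsely covered in the ZC3H7B library. FASN encodes the enzyme that builds palmitate, the saturated fatty acid from which longer and unsaturated ones are made. It had 15 reads in 3 clusters in the ZC3H7B library and 271 reads in 10 clusters in the ZC3H7A library, with 11 and 30 distinct reads. Its log2 ratio was -3.68 (-4.54 to -2.93), a 12.8-fold lower level in the ZC3H7B library relative to the median gene, and 1.76% of all genes had a lower one. With distinct reads the log2 ratio was -3.50 (-4.65 to -2.47), still beyond 2-fold, a call it shared with no other member. By mean reads per cluster it was -0.97 (-1.83 to -0.22) and by number of clusters -2.66 (-5.16 to -0.71). FASN was thus lower in the ZC3H7B library by all of these measures, though the last 2 intervals reached within 2-fold.

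FADS2 encodes the delta-6 desaturase, which starts the conversion of essential fatty acids to longer polyunsaturated ones. It had 14 reads in 2 clusters in the ZC3H7B library, against 80 reads in 3 clusters in the ZC3H7A library, with 6 and 8 distinct reads. The log2 ratio was -2.02 (-2.96 to -1.19) with reads and -2.47 (-4.28 to -0.75) with distinct reads. The call therefore did not hold with distinct reads, of which there were few. FADS1, the delta-5 desaturase that acts later in the same pathway, had 14 reads, 11 of them distinct, in 2 clusters of the ZC3H7B library. FADS1 and FADS2 are neighbours whose spans overlap in the RefSeq annotation of GRCh38.p14. Both FADS1 clusters lay in the 3' UTR. With no row for ZC3H7A, FADS1 has no ratio.

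Of the sterol synthesis genes, HMGCS1 stood on the other side and SQLE within 2-fold. HMGCS1 encodes HMG-CoA synthase, an early enzyme of the pathway. It had 974 reads in 35 clusters in the ZC3H7B library and 535 reads in 13 clusters in the ZC3H7A library, with 509 and 59 distinct reads. Its log2 ratio of 1.36 (1.20 to 1.51), or 2.56-fold, made it the member counted as higher in the ZC3H7B library. With distinct reads it was 1.05 (0.66 to 1.47), by mean reads per cluster 0.90 (0.75 to 1.06) and by number of clusters 0.50 (-0.45 to 1.55). The sign held across these measures and the call beyond 2-fold did not. SQLE encodes squalene epoxidase, a later and rate-limiting step. It had 486 reads in 21 clusters in the ZC3H7B library, against 435 reads in 13 clusters in the ZC3H7A library, with 230 and 45 distinct reads. Its log2 ratio was 0.65 (0.46 to 0.84) with reads and 0.30 (-0.17 to 0.79) with distinct reads, within 2-fold by both.

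INSIG1 encodes the sterol-sensitive anchor of SCAP and is itself a target gene of SREBP. It had 3418 reads in the ZC3H7B library and 2304 in the ZC3H7A library, in 25 clusters each, with 1175 and 180 distinct reads. The number of clusters was thus equal, whereas the median gene had 1.88 times as many in the ZC3H7B library. The log2 ratio of reads was 1.06 (0.99 to 1.14), so the interval crossed 2-fold narrowly, and by distinct reads it was 0.65 (0.42 to 0.89). By mean reads per cluster it was 2.04 (1.96 to 2.11), beyond 2-fold, and by number of clusters it was -0.93 (-1.79 to -0.07). INSIG1 therefore had more reads per cluster on average and not more clusters in the ZC3H7B library. Its median cluster was not deeper there, with 45 reads against 52 in the ZC3H7A library. The sign of its ratio thus depends on the measure.

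SCD and SREBF2 lay at the median gene by reads. SCD had a log2 ratio of 0.06 (0.02 to 0.10) with reads, -0.19 (-0.30 to -0.07) with distinct reads, 0.91 (0.87 to 0.94) by mean reads per cluster and -0.79 (-1.43 to -0.16) by number of clusters. Its sign thus depends on the measure, and none of these intervals lay wholly beyond 2-fold. SREBF2 encodes the SREBP that mainly drives cholesterol synthesis genes. It had 298 reads in 17 clusters in the ZC3H7B library, against 405 reads in 11 clusters in the ZC3H7A library, with 187 and 46 distinct reads. Its log2 ratio was 0.05 (-0.17 to 0.27) with reads and -0.03 (-0.50 to 0.47) with distinct reads, intervals that hold 0.

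**Figure D3:**
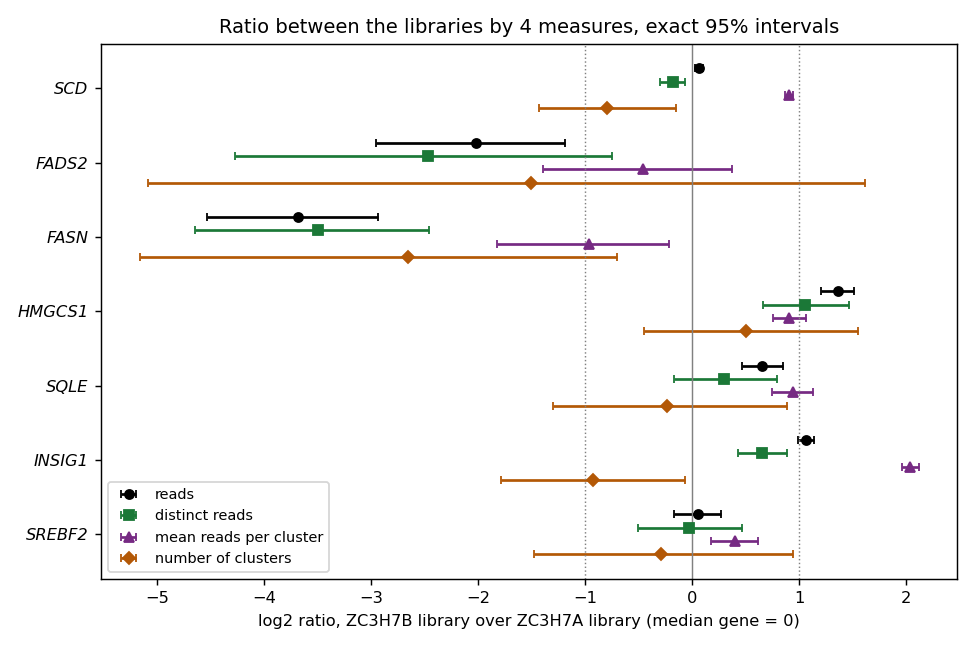
Log2 ratio of the ZC3H7B library over the ZC3H7A library for the 7 genes listed in both, by reads, distinct reads, mean reads per cluster and number of clusters, each with the median gene at 0; bars are exact 95% counting intervals and dotted lines mark 2-fold. FASN and FADS2 lie left of 0 and HMGCS1 right of 0 by all 4 measures, whereas SCD, SQLE, INSIG1 and SREBF2 change side.

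The transcript regions of the clusters differed between members. SCD clusters lay mainly in the 3' UTR, with 28 of 46 (60.9%, 45.4 to 74.9%) in the ZC3H7B library and 32 of 42 (76.2%, 60.5 to 87.9%) in the ZC3H7A library. A further 8 and 6 were in coding sequence, and 3 in each library were in the 5' UTR. INSIG1 had 16 of 25 (64.0%) and 13 of 25 (52.0%) in the 3' UTR, and SREBF2 had 13 of 17 (76.5%) and 6 of 11 (54.5%). FASN and SQLE were recovered mainly outside the 3' UTR. For FASN, coding sequence held 2 of 3 clusters in the ZC3H7B library and 9 of 10 (interval 55.5 to 99.7%) in the ZC3H7A library. SQLE had 10 of 21 (47.6%) and 6 of 13 (46.2%) in coding sequence, and 2 and 1 in the 3' UTR. HMGCS1 was mixed, with 12 and 6 clusters in coding sequence and 15 and 6 in the 3' UTR.

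Clusters in the 5' UTR and in introns set single members apart. SQLE had 1 of 21 clusters in the 5' UTR in the ZC3H7B library (4.76%, 0.120 to 23.8%) and 5 of 13 in the ZC3H7A library (38.5%, 13.9 to 68.4%). Over all genes the 5' UTR held 0.772% and 3.61% of clusters, so the direction is that of the libraries as a whole. The intervals of SQLE overlap. HMGCS1 had 8 of 35 clusters in introns in the ZC3H7B library (22.9%) and 1 of 13 in the ZC3H7A library (7.69%), and SQLE had 6 of 21 (28.6%) and 1 of 13 (7.69%). INSIG1 went the other way, with 0 of 25 and 4 of 25 (16.0%), as did SREBF2, with 0 of 17 and 2 of 11 (18.2%). In introns the share was thus higher in the ZC3H7B library for 4 of 6 members and lower for 2. The others were SCD, with 3 of 46 and 0 of 42 clusters, and FASN, with 1 of 3 and 0 of 10. Among 4517 genes with at least 3 clusters in each library, the intron share was higher for 19.7%, lower for 17.1% and equal for 2855 genes. With most genes tied and no member tied, the count of members cannot be set directly against these shares. Over all genes introns held 6.13% and 6.18%. With 0 of 25 clusters the share of INSIG1 in introns could still be up to 13.7% by the exact interval.

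Across 4517 genes with at least 3 clusters in each library, the 3' UTR share of clusters was lower in the ZC3H7B library for 18.2% of genes and higher for 69.2%. The coding share was lower for 67.8% and higher for 22.8%. The 6 members with enough clusters were split evenly. The 3' UTR share was lower in the ZC3H7B library for SCD (-15.3 percentage points), FASN and HMGCS1 and higher for INSIG1, SREBF2 (21.9 points) and SQLE. The coding share was lower for 3 and higher for 3, with a median difference of -1.14 points, beside -10.0 points over all 4517 genes. For all 6 members the intervals of the 2 libraries overlapped, in coding sequence, 3' UTR, 5' UTR and introns alike. How often they overlap over all genes was not counted, so this overlap is not a result about the members. Overlap of the intervals does not show that the shares were equal, and the differences were not tested.

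**Figure D4:**
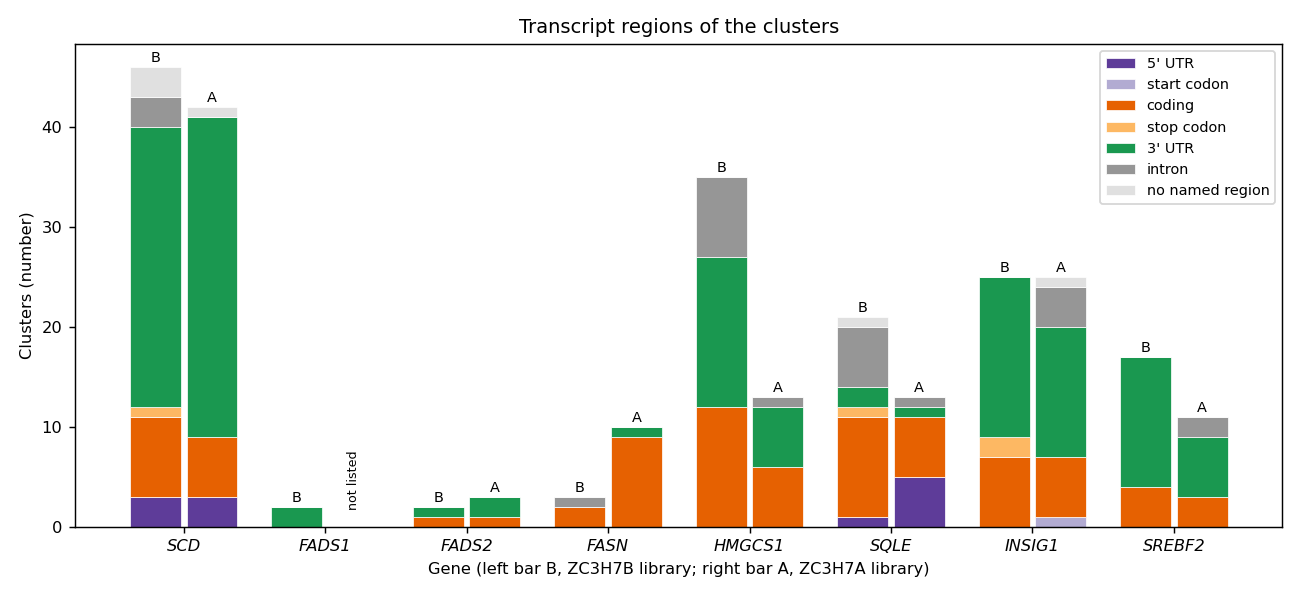
Number of clusters of each gene by transcript region, with the left bar for the ZC3H7B library and the right bar for the ZC3H7A library. SCD, INSIG1 and SREBF2 are mainly 3' UTR, FASN and SQLE are not, and 5 of 13 SQLE clusters in the ZC3H7A library lie in the 5' UTR.

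The region profile of SCD was set against those of the other genes with at least 20 clusters in both libraries, 489 genes with SCD included. The measure was the total variation distance between shares of clusters, averaged over both libraries, which is 0 for equal profiles and 1 for profiles without overlap. The nearest genes were CEBPG, a transcription factor of the C/EBP family, at 0.094, CCDC6 at 0.104 and PPP4R2, a regulatory subunit of a protein phosphatase, at 0.109, beside a median of 0.290. CEBPG had 13 of 22 clusters in the 3' UTR in the ZC3H7B library and 31 of 40 in the ZC3H7A library. INSIG1 was nearest to NDC1, a nuclear pore protein, at 0.096, MIER1 at 0.119 and RGMB at 0.122.

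Conversion and duplication were read for the same genes. The T-to-C share, averaged over the clusters of a gene, was 84.3% for SCD in the ZC3H7B library and 88.6% in the ZC3H7A library. It was 86.0% and 94.7% for INSIG1, 81.8% and 88.3% for SREBF2, and 87.4% and 92.0% for SQLE. HMGCS1 had 91.1% and 91.7%, FASN 93.3% and 94.3%, and FADS2 100% in both. The share was lower in the ZC3H7B library for 6 of 7 members, as it was for 72.6% of all genes listed in both, and the median difference was -4.32 points for members and -4.40 points for all. SREBF2 and SCD stood low within the ZC3H7B library, where 5.75% and 9.55% of genes had a lower share. They stood low within the ZC3H7A library too, with 13.6% and 14.3% of genes below them. For INSIG1 these values were 14.4% in the ZC3H7B library and 38.0% in the ZC3H7A library. FADS1, listed for ZC3H7B alone, had a share of 85.7%, with 13.0% of genes below it. These positions are among all listed genes, of which 17.5% in the ZC3H7B library and 25.2% in the ZC3H7A library had 1 cluster. They were not matched for coverage, so a low position is not shown to be particular to a member. FADS2 rests on 6 and 8 distinct reads, too few to tell its share from a lower one.

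SCD had more copies per distinct read than most genes in both libraries. Each of its distinct reads was counted 3.21 times in the ZC3H7B library, where 98.1% of genes had fewer copies, and 15.8 times in the ZC3H7A library, where 91.0% had fewer. INSIG1 stood at 2.91 and 12.8 copies, above 97.1% and 74.8% of genes. The other members lay between 1.27 and 2.33 copies in the ZC3H7B library and between 8.80 and 10.0 in the ZC3H7A library. The part of PCR copies in the deep clusters of SCD and INSIG1 was not tested.

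Other genes of the pathway were taken from lists of genes, which were chosen with earlier results of these data known. Some of these genes are named below because of their values. Of 20 further genes of cholesterol synthesis, 14 could be compared, 1 was higher in the ZC3H7B library (7.14%, beside 18.2% of all genes) and 0 in the ZC3H7A library (18.0% of all genes), and the median log2 ratio was -0.28. The best covered genes named here lay within 2-fold by reads. LBR, a sterol reductase of the nuclear envelope, stood at -0.36, the sterol methyl oxidase MSMO1 at -0.35 and squalene synthase FDFT1 at -0.74. MVK, MVD, TM7SF2, NSDHL and EBP were listed in neither library, and LSS had 5 reads in the ZC3H7B library alone.

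Among 16 further genes of SREBP processing and sterol sensing, 14 could be compared, 5 were higher in the ZC3H7B library (35.7%, beside 18.2% of all genes) and 1 in the ZC3H7A library (7.14%, beside 18.0%). The median log2 ratio was 0.32 with reads and 0.55 with distinct reads. Among the 5 were UBE2G2 (3.88), INSIG2 (2.74), RNF145 (2.10) and ERLIN1 (1.52). UBE2G2 is a ubiquitin-conjugating enzyme of the endoplasmic reticulum, RNF145 is a ubiquitin ligase that binds INSIG proteins, INSIG2 is the paralog of INSIG1, and ERLIN1 is a protein of the same membrane system. UBE2G2 had 470 reads in 16 clusters in the ZC3H7B library, 14 of them in the 3' UTR, against 45 reads in 2 clusters in the ZC3H7A library. With distinct reads UBE2G2 (3.25) and RNF145 (1.81) were counted as higher in the ZC3H7B library, as were 7.28% of all genes, whereas INSIG2 and ERLIN1 were not. INSIG2 had 2 distinct reads in the ZC3H7A library. MARCH6, a further ligase of this membrane, stood at 0.25 and ERLIN2 at 0.38. The gene higher in the ZC3H7A library was MBTPS2, which encodes the protease that makes the last cut of SREBP, at -1.44 (-1.80 to -1.10), or -1.16 with distinct reads, where its interval reached within 2-fold. SREBF1, the paralog of SREBF2 that mainly drives fatty acid synthesis genes, was listed for ZC3H7A alone, with 60 reads in 3 clusters, all in coding sequence, and SCAP was listed in neither library.

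Of 20 further genes of fatty acid synthesis, elongation and desaturation, 12 could be compared, 2 were higher in the ZC3H7B library (16.7%, near the 18.2% of all genes) and 1 in the ZC3H7A library (8.33%, beside 18.0%), with a median log2 ratio of 0.19. ACACA encodes acetyl-CoA carboxylase, which supplies the malonyl-CoA that FASN uses. It had 403 reads in 35 clusters in the ZC3H7B library and 53 reads in 1 cluster in the ZC3H7A library, a log2 ratio of 3.42 (3.0 to 3.86), or 3.39 with distinct reads. FASN, at -3.68, thus stood at the other end of the list by reads. ACACA had 6 distinct reads in the ZC3H7A library. By mean reads per cluster ACACA stood at -0.73, on the same side as FASN at -0.97, so its sign depends on the measure. ELOVL6, which lengthens palmitate to the stearate that SCD acts on, stood at 1.31 (1.11 to 1.51) with reads and 0.90 with distinct reads, so that its call did not hold. ME1, a source of NADPH for fatty acid synthesis, stood at -1.44 with reads and -1.20 with distinct reads and was counted as higher in the ZC3H7A library by reads alone. The elongase ELOVL5 stood at 0.41, the dehydratase PTPLAD1 at 0.28 and the sphingolipid desaturase DEGS1 at -0.63. SCD5, the paralog of SCD, had 160 reads in 9 clusters in the ZC3H7B library and 129 reads in 4 clusters in the ZC3H7A library, at 0.80 (0.46 to 1.15). ACLY, ACSS2, ACACB, ELOVL3, TECR, HACD1 and FADS3 were listed in neither library.

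**Figure D5:**
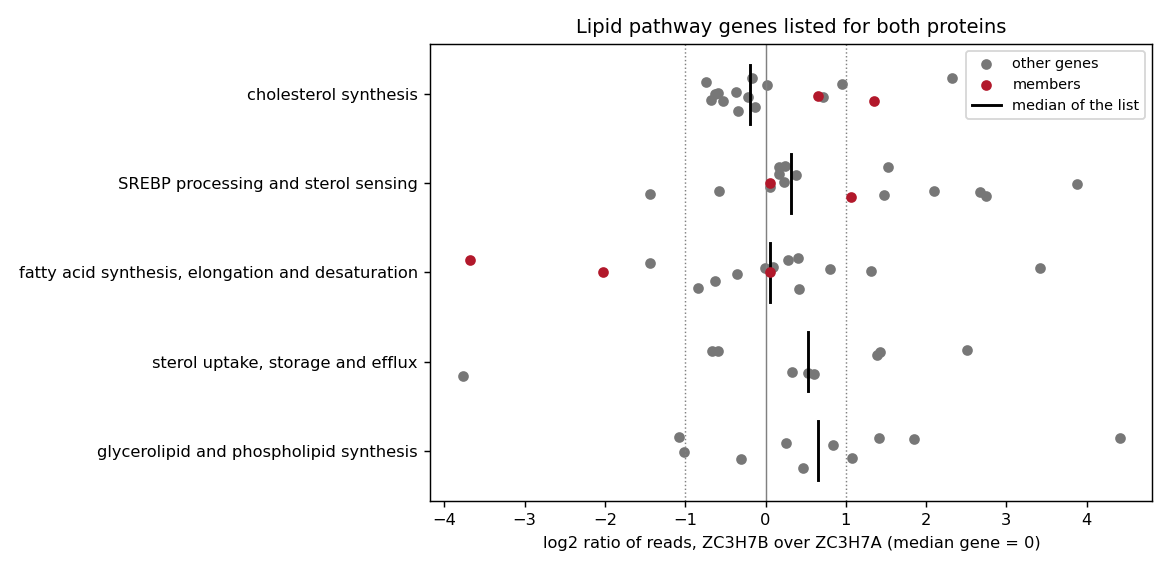
Log2 ratio of reads, ZC3H7B over ZC3H7A, for the genes of 5 lipid lists that were listed for both proteins; each point is a gene (its height within a list has no meaning), red points are members, the black bar is the list's median and dotted lines mark 2-fold. The medians lie between -0.20 and 0.65, and single genes such as FASN at -3.68 and UBE2G2 at 3.88 lie far from them.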

How the data were processed

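Members and gene lists were chosen with earlier results of these data known. Named genes are the members, ZC3H7A and ZC3H7B, the 4 genes with the highest summed read shares of each list, and the 3 nearest region profiles; others were named after their values were seen. Some genes of the lists are counted but not reported here by name. The build was hg19, and STAR 2.5.2a, Bowtie and cutadapt are named without roles, per the submitters' processing notes; the cluster caller is not given in the sources used here. Per the file headers, the deposited counts are clusters, reads and distinct reads per gene and clusters per region. The deposited fraction is the median T-to-C share over clusters, with its sum beside it. The deposited signal is the median number of reads per cluster. Rows naming a repeat or small RNA class were left out, 407 of 9566 for ZC3H7B and 282 of 8486 for ZC3H7A (1.51% and 1.57% of reads). The exon column was read as coding sequence. Intervals are exact Clopper-Pearson 95% intervals. Sums over clusters move with how many were called, and covered lengths were not used. The interval of mean reads per cluster is that of reads. The ratio calculation was run on simulated independent counts without PCR copies. That run therefore does not check the intervals under the duplication of these libraries. Alternatives were distinct reads, mean reads per cluster, clusters, library totals, TMM scaling by edgeR 4.0.16 (R 4.3.3; no test), no filter, class rows kept, and other call rules and region definitions. Scripts ran in Python 3.11.15 with scipy 1.17.1, numpy 2.4.6, pandas 2.3.3 and matplotlib 3.10.9.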

Additional observations from a re-analysis of the deposited data

How the results depend on the processing

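Of 49 alternative values of single members' log2 ratios, 39 kept their side of the 2-fold rule, 8 lost a call and 2 gained one, both for INSIG1, which stood at 2.04 by mean reads per cluster and 1.22 with library totals. The 1 member counted as higher in the ZC3H7B library became 0 with distinct reads and 0 with clusters, and 2 with library totals, with the point estimate beyond 2-fold or with the interval beyond 1.5-fold. The share of all genes called was not counted under the last 3 rules, so the rise to 2 is not a result about the members. The 2 counted as higher in the ZC3H7A library became 1 with distinct reads and 0 with clusters or with mean reads per cluster. Of the 59 other pathway genes, the 13 higher in the ZC3H7B library (22.0%, beside 18.2% of all genes) became 6 with distinct reads, 1 with clusters and 8 with mean reads per cluster. The 3 higher in the ZC3H7A library (5.08%, beside 18.0% of all genes) became 1 with distinct reads or library totals. They became 0 with clusters or with mean reads per cluster. For library totals the share of all genes was not counted here either. The shares of all genes higher in the ZC3H7B library fell too, to 7.28% with distinct reads, 0.321% with clusters and 6.18% with mean reads per cluster. Those higher in the ZC3H7A library fell to 10.1%, 0.223% and 4.65% in the same order. Counts of clusters and distinct reads are smaller numbers with wider intervals, and the point estimates moved between measures as well. The cause of the changes was not tested. Library totals moved the median of all genes to 0.16. All 30 alternative coding shares stayed within the counting interval of the value reported, which is wide where clusters are few and so says little on stability. Coding clusters per coding length were not run, because no protein lengths were used here. No paired analysis was possible because each protein had 1 library.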

Other observations

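Genes of sterol uptake, storage and efflux were fewer in the tables. Of 17, 9 could be compared, 3 were higher in the ZC3H7B library (33.3%, beside 18.2% of all genes) and 1 in the ZC3H7A library (11.1%, beside 18.0%), with a median log2 ratio of 0.53 (0.40 with distinct reads). VLDLR, a lipoprotein receptor, had 324 reads in 27 clusters in the ZC3H7B library, 22 of them in the 3' UTR, and 80 reads in 4 clusters in the ZC3H7A library, a log2 ratio of 2.51 (2.15 to 2.88). It was beyond 2-fold with distinct reads too (2.24). LIPA, the lysosomal acid lipase, stood at 1.39 and did not keep its call with distinct reads (1.28). NR1H2, which encodes the oxysterol receptor LXR beta, had 7 reads in 1 cluster in the ZC3H7B library and 134 reads in 6 clusters in the ZC3H7A library, at -3.77 (-5.11 to -2.68), or -3.96 with distinct reads. Of the 4 best covered genes, VLDLR among them, the other 3 lay within 2-fold, with the sterol-binding protein gene OSBP at 0.53, the ubiquitin ligase gene MYLIP at 0.60 and the sterol acyltransferase gene SOAT1 at -0.66. LRP8 had 162 reads in 9 clusters in the ZC3H7B library, all in the 3' UTR, and no row for ZC3H7A.

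Of 20 genes of glycerolipid and phospholipid synthesis, 10 could be compared, and 2 were higher in the ZC3H7B library (2 of 10, a share near the 18.2% of all genes) and 0 in the ZC3H7A library (18.0% of all genes). AGPAT3, an acyltransferase of phosphatidic acid synthesis, had 363 reads in 19 clusters in the ZC3H7B library and 24 reads in 2 clusters in the ZC3H7A library, a log2 ratio of 4.41 (3.82 to 5.07), or 3.06 with distinct reads. PTDSS1, a phosphatidylserine synthase, stood at 1.86 (1.33 to 2.41), where its call did not hold with distinct reads (1.90, on 4 distinct reads in the ZC3H7A library). The acyl-CoA synthetase genes ACSL3 and ACSL4 stood at 0.84 and 0.26 and CEPT1 at -0.30. PCYT1A, the rate-setting enzyme of phosphatidylcholine synthesis, had 143 reads in 15 clusters in the ZC3H7B library, all in the 3' UTR, and no row for ZC3H7A. Whether genes listed for 1 protein lacked contacts with the other or fell below the cluster caller's threshold was not tested.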
